A study of Mus musculus with 48 samples.

Results

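The 8 genes described here were Bdnf, its receptor gene Ntrk2 and 6 slower activity-regulated genes of the secretory pathway and the synapse, namely Vgf, Scg2, Pcsk1, Nptx1, Nptx2 and Homer1. They were chosen by name, as a group with related roles, with earlier results of these data known. They were matched by symbol in a table of 56893 genes, of which 17352 passed a filter on low counts. All 8 passed it. Messenger RNA had been sequenced from 1 brain hemisphere of each of 48 mice, in 12 groups of 4 mice given by sex, genotype and feeding state. Control mice carried loxP-flanked Grin1 (Grin1fl/fl), except 1 unrestricted female labelled Grin1fl/+, and had no recombinase. Knockout mice were Aldh1a1+/P2A-CreERT2::Grin1fl/fl, in which the inducible recombinase is driven from the Aldh1a1 locus and can act only in cells that express that gene, among them a class of midbrain dopamine neurons. Grin1 encodes the subunit that every NMDA-type glutamate receptor requires. The labels used here do not mention tamoxifen. Mice were between 5.5 and 8.5 months old and all were moved to single cages. Unrestricted mice (No Restriction) were collected after about 48 hours there, restricted mice (Post-Restriction) after 2 consecutive nights of food restriction, with chow given between them, and refed mice (Refeeding) after those 2 nights and then 72 hours of free access to grain-based pellets from an automatic feeder. The series asked how the knockout, sex and feeding state bear on the transcriptome. Each library came from another mouse, so replicates were separate animals.

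BDNF is a secreted neurotrophin that acts through TrkB, the receptor tyrosine kinase encoded by Ntrk2, and supports synaptic strength and the survival of neurons. Calcium entry through NMDA receptors and other channels activates transcription factors such as CREB, which switch on rapid immediate early genes and, more slowly, secreted and synaptic effectors. Among these effectors are neuropeptide precursors and the convertases that cut them in dense-core granules, pentraxins that gather AMPA-type glutamate receptors at synapses, and Homer scaffolds that tie metabotropic glutamate receptors to their partners. In the hypothalamus, BDNF and TrkB restrain food intake, and VGF-derived peptides take part in energy balance.

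CREB binds the cyclic AMP response element, and the promoter sequences below are shown to let a reader see which of the 8 genes carry those letters close to a start site. RefSeq promoter entries (GRCm38.p6) were at hand for 5 of the 8 genes, in 12 start-site windows: 7 for Bdnf, 2 for Homer1 and 1 each for Ntrk2, Pcsk1 and Scg2. Vgf, Nptx1 and Nptx2 had no entry. The 250 bases before each start site were searched on both strands for the full element TGACGTCA, for the shorter element TGACG, which every full element also contains on each strand, and for the E-box CACGTG. Of 32851 promoter windows of the same length, 1.55% held the full element, 17.8% the shorter one and 6.02% the E-box. The full element lay in the windows of Scg2 and Pcsk1, a pair of granule genes whose levels varied together among mice of a group, starting at positions -68 and -78 from the start site. Pcsk1 had a further copy of the shorter element at position -50. Homer1, which among the 8 genes had the largest genotype difference in a single combination (restricted females, log2 -0.46, not called), had 3 copies of the shorter element, starting at positions -56, -40 and -14 of 1 of its windows. Bdnf had 1 copy, at position -35, in 1 of its 7 windows. The other Bdnf and Homer1 windows and that of Ntrk2 held none, and none of the 12 windows held the E-box. The 4 windows with a match follow, 5′ to 3′ on the gene's strand, with the matched letters in capitals. A match is a description of the sequence and not evidence of binding, and no match says only that these letters are not in the window. Whether these letters bear on the levels of the genes was not tested. Vgf and Nptx1, the pair with the highest within-group r of the 8 genes, had no window to search.
Scg2 (chr1:79440027-79440276, minus strand): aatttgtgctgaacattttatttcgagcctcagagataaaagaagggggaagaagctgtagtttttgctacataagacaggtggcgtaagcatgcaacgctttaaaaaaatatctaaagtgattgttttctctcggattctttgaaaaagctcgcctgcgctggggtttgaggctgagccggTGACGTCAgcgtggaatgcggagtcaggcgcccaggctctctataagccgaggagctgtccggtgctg
Pcsk1 (chr13:75089607-75089856, plus strand): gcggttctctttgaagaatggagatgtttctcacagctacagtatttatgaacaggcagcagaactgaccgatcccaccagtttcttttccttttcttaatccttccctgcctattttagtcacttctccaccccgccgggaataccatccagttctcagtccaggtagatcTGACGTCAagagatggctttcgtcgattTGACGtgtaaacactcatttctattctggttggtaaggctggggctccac
Homer1 (chr13:93303507-93303756, plus strand): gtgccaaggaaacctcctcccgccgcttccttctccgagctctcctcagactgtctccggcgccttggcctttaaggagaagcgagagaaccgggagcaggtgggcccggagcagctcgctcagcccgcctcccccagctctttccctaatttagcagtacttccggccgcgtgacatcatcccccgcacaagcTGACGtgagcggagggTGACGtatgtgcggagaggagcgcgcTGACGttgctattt
Bdnf (chr2:109692186-109692435, plus strand): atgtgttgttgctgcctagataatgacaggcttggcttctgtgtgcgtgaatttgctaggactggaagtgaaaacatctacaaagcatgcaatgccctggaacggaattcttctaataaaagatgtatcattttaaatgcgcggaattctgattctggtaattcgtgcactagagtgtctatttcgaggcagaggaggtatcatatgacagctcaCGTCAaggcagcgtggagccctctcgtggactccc

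Library totals lay between 7574827 and 16185373 estimated counts, with a median of 10515486. Levels below are CPM, counts scaled to a common library size after TMM normalization. Aldh1a1, the gene that carries the recombinase, measured 190.3 ± 27.3 CPM (SD, n = 24) in controls and was lower in the 24 knockouts (log2 difference -0.92, SE 0.05, edgeR adjusted p = 1.42e-16). Grin1 itself measured 350.9 ± 49.3 and 356.3 ± 29.4 CPM (log2 difference 0.02, SE 0.04, edgeR adjusted p = 1). Markers of brain tissue were present throughout: the 8 neuronal marker genes summed to between 5346.5 and 6853.4 CPM in the 48 libraries, and no gene of the marker lists was at 0 in all libraries. In a bulk sample of this kind, fewer cells of a type and less RNA per cell cannot be told apart. The deposited counts are per gene, so the short and long forms of Homer1 and the full-length and truncated TrkB forms were counted together.

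The genes lie on separate stretches of the mouse genome (GRCm39, GENCODE M39), all annotated as protein-coding. Bdnf is at chr2:109505045-109557475 (plus strand) and shares its locus with Gm45346, an antisense long non-coding RNA that had 114 counts over all libraries against 7622 for Bdnf. The strand setting of the counting is not given in the sources used here, so reads of this pair may not be told apart. Ntrk2 (chr13:58954176-59281784, plus), Pcsk1 (chr13:75237284-75284898, plus) and Homer1 (chr13:93436143-93541637, plus) share a chromosome, and so do Vgf (chr5:137055246-137062205, plus) and Nptx2 (chr5:144482692-144500381, plus). Nptx1 is at chr11:119428472-119438585 (minus) and Scg2 at chr1:79412386-79417837 (minus). Genes overlapping Ntrk2 or Homer1 that were in the table had at most 5 counts.

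Divided by the length of the canonical transcript, Scg2 stood highest with 98 ± 10 CPM per kilobase (SD, n = 48). Vgf followed with 59 ± 9.86, Ntrk2 with 55.4 ± 4.4 and Nptx1 with 47.6 ± 5.22 CPM per kilobase, and the ranges of these 3 overlapped. A lower tier held Homer1 (17 ± 2.43) and Nptx2 (9.33 ± 1.42), then Pcsk1 (5.29 ± 0.577) and Bdnf (3.57 ± 0.492 CPM per kilobase). Across the 48 libraries Scg2 (81.2 to 121) met only the top of the Vgf range (33.2 to 86.1), and Bdnf (2.54 to 4.77) met the bottom of that of Pcsk1 (4.35 to 7.61). The ligand gene was thus the least abundant of the 8 per length and its receptor gene among the more abundant. Ntrk2 is also expressed in astrocytes.

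**Figure D1:**
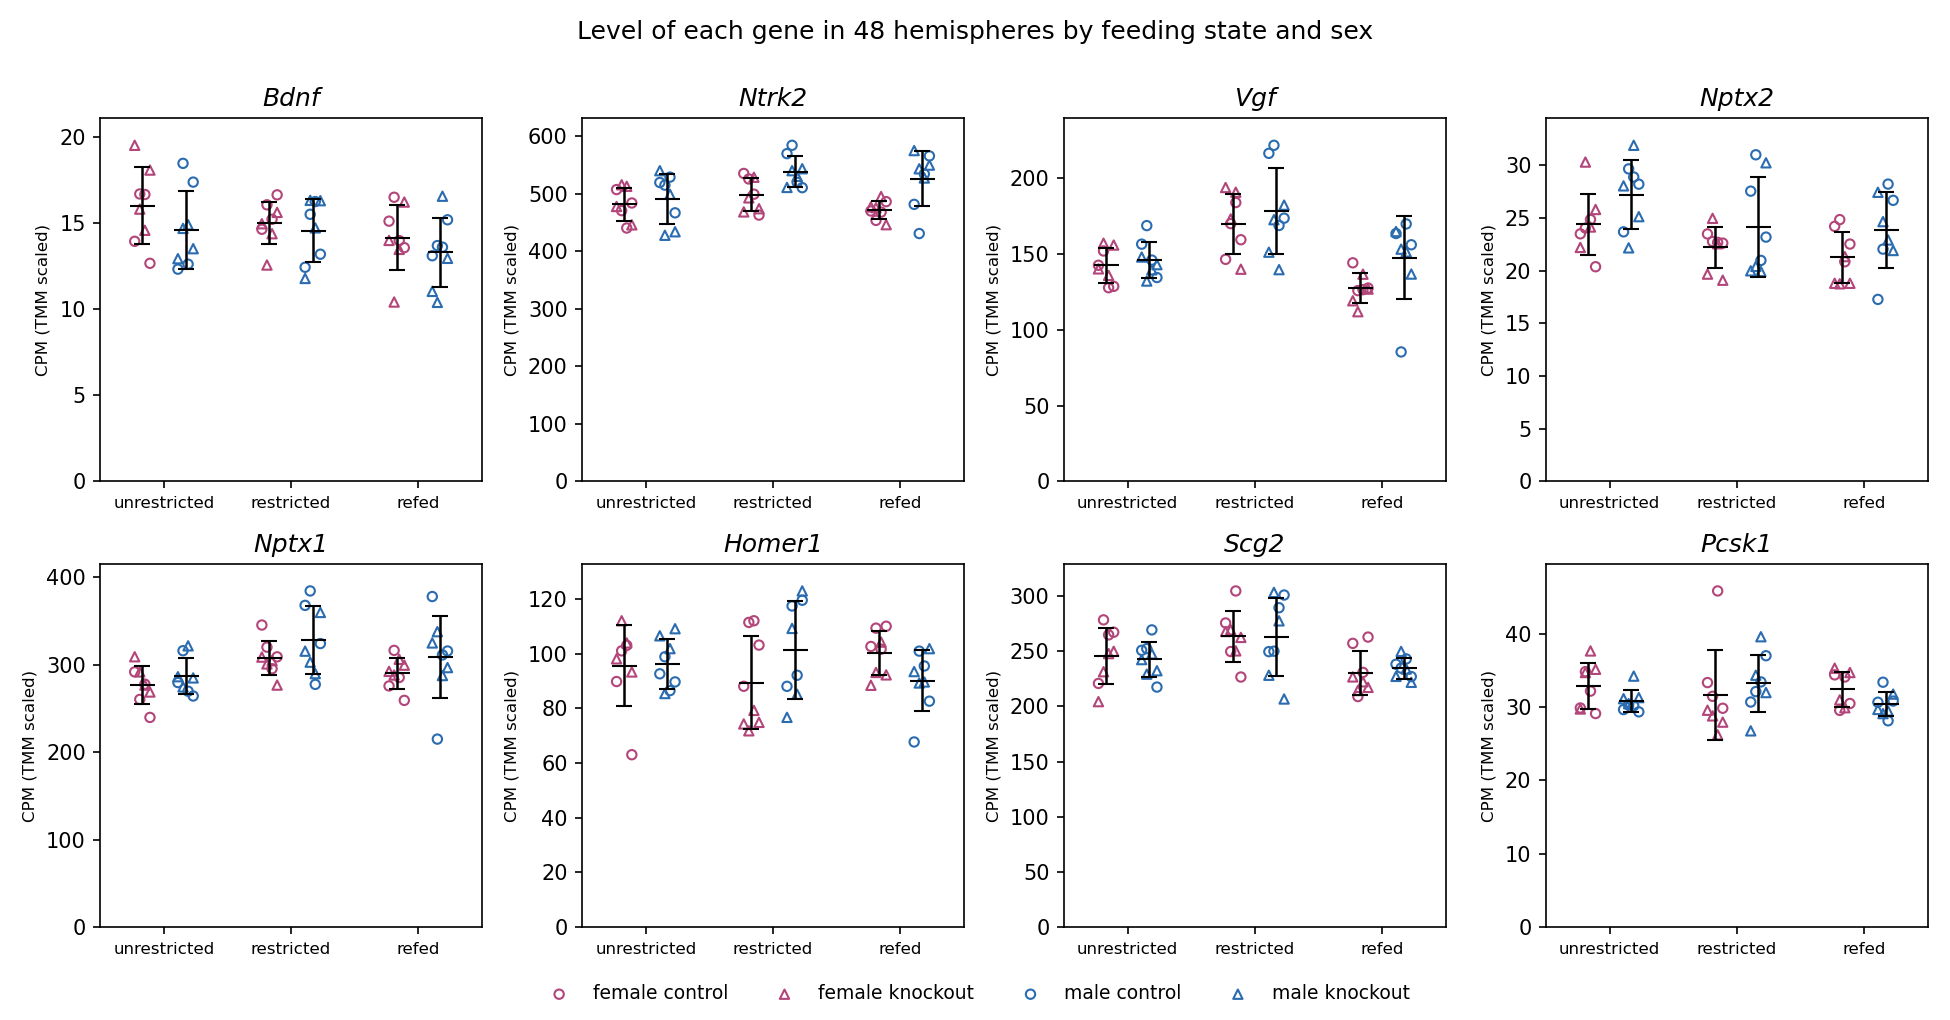
Level of each gene in CPM (TMM scaled, y axis from 0) in the 48 libraries, by feeding state (x axis), for females (pink) and males (blue), controls (circles) and knockouts (triangles); black lines are means ± SD of 8 mice. Vgf stands higher in the restricted libraries, with a mean of 173.8 CPM, than in the unrestricted (144.1 CPM) and refed (137.3 CPM) ones, while Bdnf and Homer1 overlap widely across states.

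Restriction came with higher Vgf and Nptx1, with both sexes and genotypes averaged. A gene was called when the quasi-likelihood test of edgeR, adjusted by the Benjamini-Hochberg method over all 17352 genes, gave a p under 0.05. By this rule 2 of the 8 genes were called against unrestricted mice, both higher, and 15.2% of all genes tested were called. For 8 genes that share would correspond to about 1 gene. Because the 8 genes were chosen with earlier results of these data known, setting the counts side by side is a description and not a test. Across the 8 genes the median log2 difference was 0.05, against 0.00 (-0.000457) over all genes.

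Vgf encodes a precursor of granule peptides. Its lowest, median and highest levels were 127.6, 142.6 and 168.5 CPM in the 16 unrestricted mice, 139.5, 172.7 and 221.4 CPM in the 16 restricted mice, and 85.3, 136.5 and 169.6 CPM in the 16 refed mice. The groups overlapped, but 11 of the 16 restricted mice stood above the highest unrestricted mouse and all 16 refed mice stood below the restricted median. Vgf was 20.3% higher in restricted than in unrestricted mice (173.8 ± 24.2 against 144.1 ± 11.5 CPM, log2 0.27, SE 0.06, edgeR adjusted p = 0.00187). The 95% interval of that log2 difference ran from 0.14 to 0.39.

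Nptx1 encodes a secreted neuronal pentraxin. It measured 239.9 at the lowest, 278.9 at the median and 321.8 CPM at the highest in unrestricted mice, and 276.9, 309.0 and 384.6 CPM in restricted mice. The groups overlapped, with 14 of 16 restricted mice above the unrestricted median and 5 above the highest unrestricted mouse. The difference was 1.13-fold (317.9 ± 31.6 against 282.3 ± 21.1 CPM, log2 0.17, SE 0.05, edgeR adjusted p = 0.0159). Its paralog Nptx2 did not share that sign: 25.8 ± 3.32 CPM in unrestricted and 23.2 ± 3.62 CPM in restricted mice, log2 -0.15, SE 0.07, edgeR adjusted p = 0.125. It was called lower with the trend over GC content removed (-0.17, adjusted p = 0.0379) or without male knockout restricted replicate 4 (-0.19, 0.025). The difference between the paralogs was not tested.

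The neurotrophin pair did not pass. Bdnf measured 12.34, 14.81 and 19.54 CPM (lowest, median, highest) in unrestricted mice, 11.8, 15.11 and 16.66 CPM in restricted mice and 10.41, 13.67 and 16.58 CPM in refed mice, and the 3 states overlapped over most of their range. Its log2 difference for restricted against unrestricted mice was -0.05 (95% interval -0.18 to 0.09, edgeR adjusted p = 0.721). Ntrk2 measured 427.6, 491.3 and 539.8 CPM in unrestricted, 462.7, 522.4 and 583.9 CPM in restricted and 430.6, 483.6 and 574.7 CPM in refed mice. Its log2 difference was 0.09 (95% interval 0.02 to 0.16, edgeR adjusted p = 0.0854), with 13 of 16 restricted mice above the unrestricted median, and it was called by DESeq2 (adjusted p = 0.0492), by limma voom (0.0154) and by edgeR with the trend over transcript length removed (0.0112).

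Of the other secretory and synaptic genes, none passed for restricted against unrestricted mice. Scg2, which encodes secretogranin II, another granule precursor, had a log2 difference of 0.11 (95% interval 0.02 to 0.20, edgeR adjusted p = 0.108). Pcsk1, the prohormone convertase that cuts such precursors, had 0.02 (-0.08 to 0.12, adjusted p = 0.861). Homer1, the postsynaptic scaffold, had -0.02 (-0.14 to 0.11, adjusted p = 0.895). Without the adjustment, 5 of the 8 genes had a p under 0.05, as had 26.8% of all genes.

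Refeeding came with lower Vgf and Scg2 than restriction. Again 2 of the 8 genes were called, both lower, with 15.2% of all genes called and a median log2 difference of -0.07 over the 8 genes and 0.00 (-0.001) over all genes. This comparison and the previous one share the 16 restricted libraries. Vgf was 0.79-fold of its restricted level (137.3 ± 22.3 against 173.8 ± 24.2 CPM, log2 -0.34, SE 0.06, edgeR adjusted p = 9.4e-05), and 9 of 16 refed mice stood below the lowest restricted mouse.

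Scg2 measured 206.7, 265.2 and 304.6 CPM (lowest, median, highest) in restricted and 208.9, 229.0 and 262.8 CPM in refed mice. The groups overlapped fully at the low end, yet all 16 refed mice stood below the restricted median. The fitted change was 0.88-fold (log2 -0.18, SE 0.05, edgeR adjusted p = 0.00477). The other 6 genes were not called: log2 -0.10 for Bdnf (adjusted p = 0.329), -0.06 for Ntrk2 (0.303), -0.05 for Nptx2 (0.704), -0.09 for Nptx1 (0.273), 0.01 for Homer1 (0.969) and -0.04 for Pcsk1 (0.661). Ntrk2 was called lower with the trend over transcript length removed (-0.08, adjusted p = 0.0202).

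Between refed and unrestricted mice edgeR called 0 of the 8 genes, with 0.738% of all genes called; 2 had an unadjusted p under 0.05, as had 13% of all genes, and DESeq2 and limma voom also called 0. These 2 were Nptx2 (22.6 ± 3.27 against 25.8 ± 3.32 CPM, log2 -0.19, 95% interval -0.33 to -0.06, adjusted p = 0.176) and Bdnf (13.8 ± 1.94 against 15.3 ± 2.29 CPM, log2 -0.15, 95% interval -0.29 to -0.01, adjusted p = 0.337). Nptx2 stood below the unrestricted median in 13 of 16 refed mice. For Vgf the log2 difference was -0.07 (-0.20 to 0.05), for Nptx1 0.09 (-0.02 to 0.19) and for Scg2 -0.07 (-0.16 to 0.02).

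**Figure D2:**
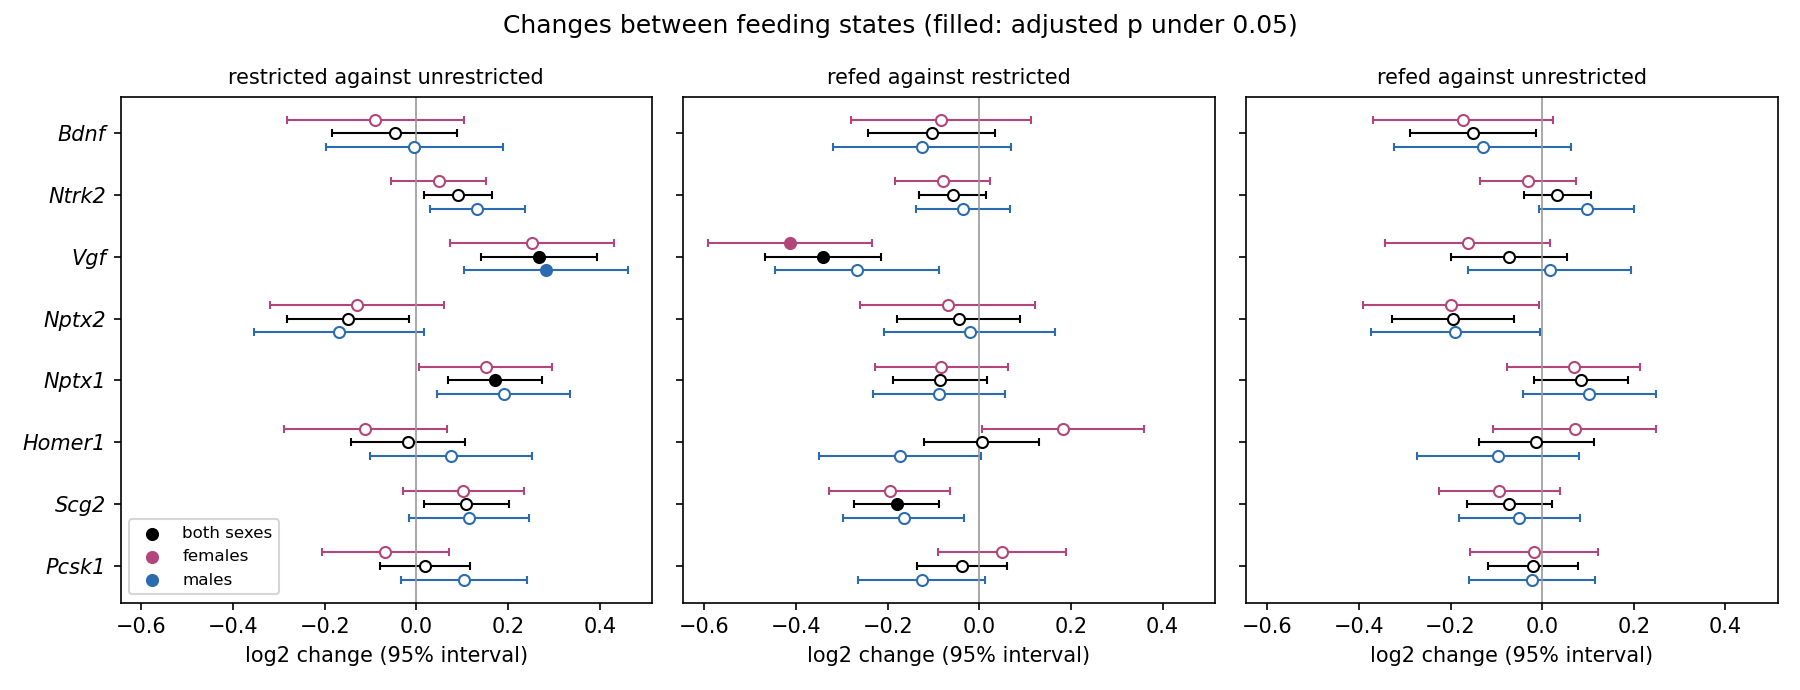
Log2 change of each gene between feeding states (x axis, with 95% interval; filled points have an adjusted p under 0.05), with both sexes averaged (black), in females (pink) and in males (blue). The filled points in the averaged comparisons are Vgf (0.27) and Nptx1 (0.17) for restricted against unrestricted mice and Vgf (-0.34) and Scg2 (-0.18) for refed against restricted mice.

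The labels number the libraries, and all 16 refed libraries were numbered up to 28, while the unrestricted ones were 5 up to 28 and 11 from 29 and the restricted ones 7 and 9. The labels do not say whether these ranges were handled apart. For restricted against unrestricted mice, Vgf had a log2 difference of 0.22 (edgeR adjusted p = 0.34) within the libraries up to 28 and 0.18 (0.202) within those from 29, and Nptx1 had 0.21 (0.254) and 0.12 (0.34). Neither was called within a range. Fewer libraries were compared there, and for Vgf both values were also smaller than the 0.27 over all libraries. For Nptx1 the value over all libraries, 0.17, lay between those of the ranges. The parts of library number range and of fewer libraries in this were not tested. With the range as a term in the model, Vgf (0.25, adjusted p = 0.00309) and Nptx1 (0.15, 0.0256) passed, as did Vgf for refed against restricted mice (-0.39, 0.000139). Scg2 no longer passed with that term (-0.12, adjusted p = 0.125). Because no refed library had a number from 29, the refeeding comparison could not be made within that range.

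Markers of other cell classes also differed between feeding states, in some lists in both directions. In restricted against unrestricted mice, 4 of 6 oligodendrocyte and 4 of 6 microglial markers were called lower, and 0 of 8 neuronal and 0 of 6 excitatory forebrain markers were called in edgeR (0 of either at an unadjusted p under 0.05). Single markers of other classes were called there: Vip of inhibitory neurons (log2 0.32), Agrp of the hypothalamus (1.37), Eomes of the olfactory bulb (0.58) and Slco1a4 of endothelium (0.21) were higher, and Adora2a of striatal neurons (-0.39), Aqp4 of astrocytes (-0.48) and Cldn5 of endothelium (-0.24) lower. In refed against restricted mice, all 6 microglial markers were called higher, oligodendrocyte markers were called higher for 4 and lower for 1 of 6, and all 5 red blood cell genes were called higher. Also called were 2 of 6 astrocyte markers (Aqp4 0.50, Gja1 0.19) and 2 of 5 dentate granule cell markers (C1ql2 0.27, Prox1 0.18), all higher, and Vip (-0.34), Agrp (-1.44) and Eomes (-0.96), all lower. The summed microglial level was 204.7 to 269.3 CPM in restricted, 238.7 to 275.3 CPM in unrestricted and 246.0 to 288.2 CPM in refed mice, and the summed oligodendrocyte level 8324.4 to 15880.7, 9303.5 to 17557.3 and 9509.0 to 14144.8 CPM. The part of these shifts in the levels of Vgf, Nptx1 and Scg2 was not tested. The summed neuronal markers had means of 5852.5, 5817.4 and 5840.3 CPM in unrestricted, restricted and refed mice.

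Within one sex, where each state held 8 mice, Vgf was higher in restricted than in unrestricted and refed mice of both sexes, while refed against unrestricted mice had a log2 difference of -0.16 in females and 0.02 in males. In females Vgf measured 142.3 ± 11.6 CPM unrestricted, 169.5 ± 19.9 CPM restricted and 127.2 ± 9.83 CPM refed. In males it measured 145.9 ± 12, 178.1 ± 28.6 and 147.4 ± 27.1 CPM. Restricted against unrestricted, edgeR called 0 of the 8 genes in females (6.27% of all genes; 2 genes at an unadjusted p under 0.05, as had 19% of all genes; 0 by DESeq2 and 1 by limma voom, which called 9.6% of all genes; Vgf log2 0.25, adjusted p = 0.0827) and 1 in males (8.28% of all genes; Vgf log2 0.28, adjusted p = 0.0365).

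After refeeding, the call for Vgf against restricted mice was in females (1 of 8 genes, with 6.1% of all genes called; log2 -0.41, edgeR adjusted p = 0.00218). In males edgeR called 0 of 8 (8.33% of all genes; 2 genes at an unadjusted p under 0.05, as had 22.6% of all genes; 1 by DESeq2, which called 8.73% of all genes, and 0 by limma voom; Vgf log2 -0.27, adjusted p = 0.0505). Without male control refed replicate 2, Vgf had -0.18 (adjusted p = 0.0741) in that comparison. Of the refed females, 7 of 8 stood below the lowest restricted female for Vgf, and 2 of 8 refed males stood below the lowest restricted male. Scg2 had log2 changes of -0.20 in females (adjusted p = 0.0632) and -0.17 in males (0.111), both short of the threshold in edgeR. In females it was called by DESeq2 (adjusted p = 0.048) and limma voom (0.023). There edgeR also called it with age as a term (adjusted p = 0.0485), the GC trend removed (0.0316) or only the groups compared (0.0394). In males edgeR called it without male knockout restricted replicate 4 (-0.21, adjusted p = 0.03).

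Refed against unrestricted mice, edgeR called 0 of 8 genes in females (0.0403% of all genes; 1 at an unadjusted p under 0.05, as had 5.09% of all genes, 0 by either other tool) and 0 in males (0.167% of all genes; 1 at an unadjusted p under 0.05, as had 13.4% of all genes; 0 by DESeq2, and 1, Ntrk2, by limma voom, which called 7.47% of all genes). The difference of the feeding changes between the sexes was tested directly. It was called for 0 of 8 genes (0% of all genes; 1 at an unadjusted p under 0.05, as had 6.35% of all genes, 0 by DESeq2 or limma voom). That 1 gene was Homer1, with refed against restricted log2 values of 0.18 in females and -0.17 in males (edgeR adjusted p of the interaction 0.711).

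Averaged over all states, males and females also gave 0 calls among the 8 genes (0.357% of all genes; 3 at an unadjusted p under 0.05, as had 18% of all genes; 0 by DESeq2, and 3 by limma voom, which called 11% of all genes). Ntrk2 measured 518.4 ± 43.6 CPM in 24 males and 483.6 ± 26.7 CPM in 24 females (log2 0.10, 95% interval 0.04 to 0.16, edgeR adjusted p = 0.11). Nptx2 had a log2 difference of 0.15 (0.04 to 0.26, adjusted p = 0.144) and Vgf of 0.11 (0.00 to 0.21, adjusted p = 0.268). Without male control refed replicate 2, the library with the lowest Vgf, Ntrk2 (0.11, adjusted p = 0.0188) and Vgf (0.14, adjusted p = 0.0334) passed, with 6.81% of all genes called.

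No difference between knockout and control mice passed the threshold for the 8 genes. Over all combinations edgeR called 0 of them, with 0.00576% of all genes called, 0 of the 8 at an unadjusted p under 0.05 and 0 by DESeq2 or limma voom. The intervals of this averaged log2 difference were -0.06 to 0.06 for Ntrk2 and -0.07 to 0.09 for Nptx1. They were -0.15 to 0.07 for Bdnf, -0.14 to 0.07 for Vgf and -0.17 to 0.05 for Nptx2. For Homer1 the interval was -0.15 to 0.06, for Pcsk1 -0.10 to 0.06 and for Scg2 -0.15 to 0.00. These intervals bound only the average over combinations in RNA of a whole hemisphere, where Grin1 itself had a log2 difference of 0.02. They do not bound a difference in a single combination or within the cells that express Aldh1a1, which was not tested. Scg2 was the nearest to the threshold, with 240.2 ± 23.7 CPM in knockouts and 252.9 ± 25.5 CPM in controls (unadjusted p = 0.0516, edgeR adjusted p = 1). In females and in males alone the count was also 0 (0.00576% of all genes in each; 0 at an unadjusted p under 0.05 and 0 by the other tools).

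**Figure D3:**
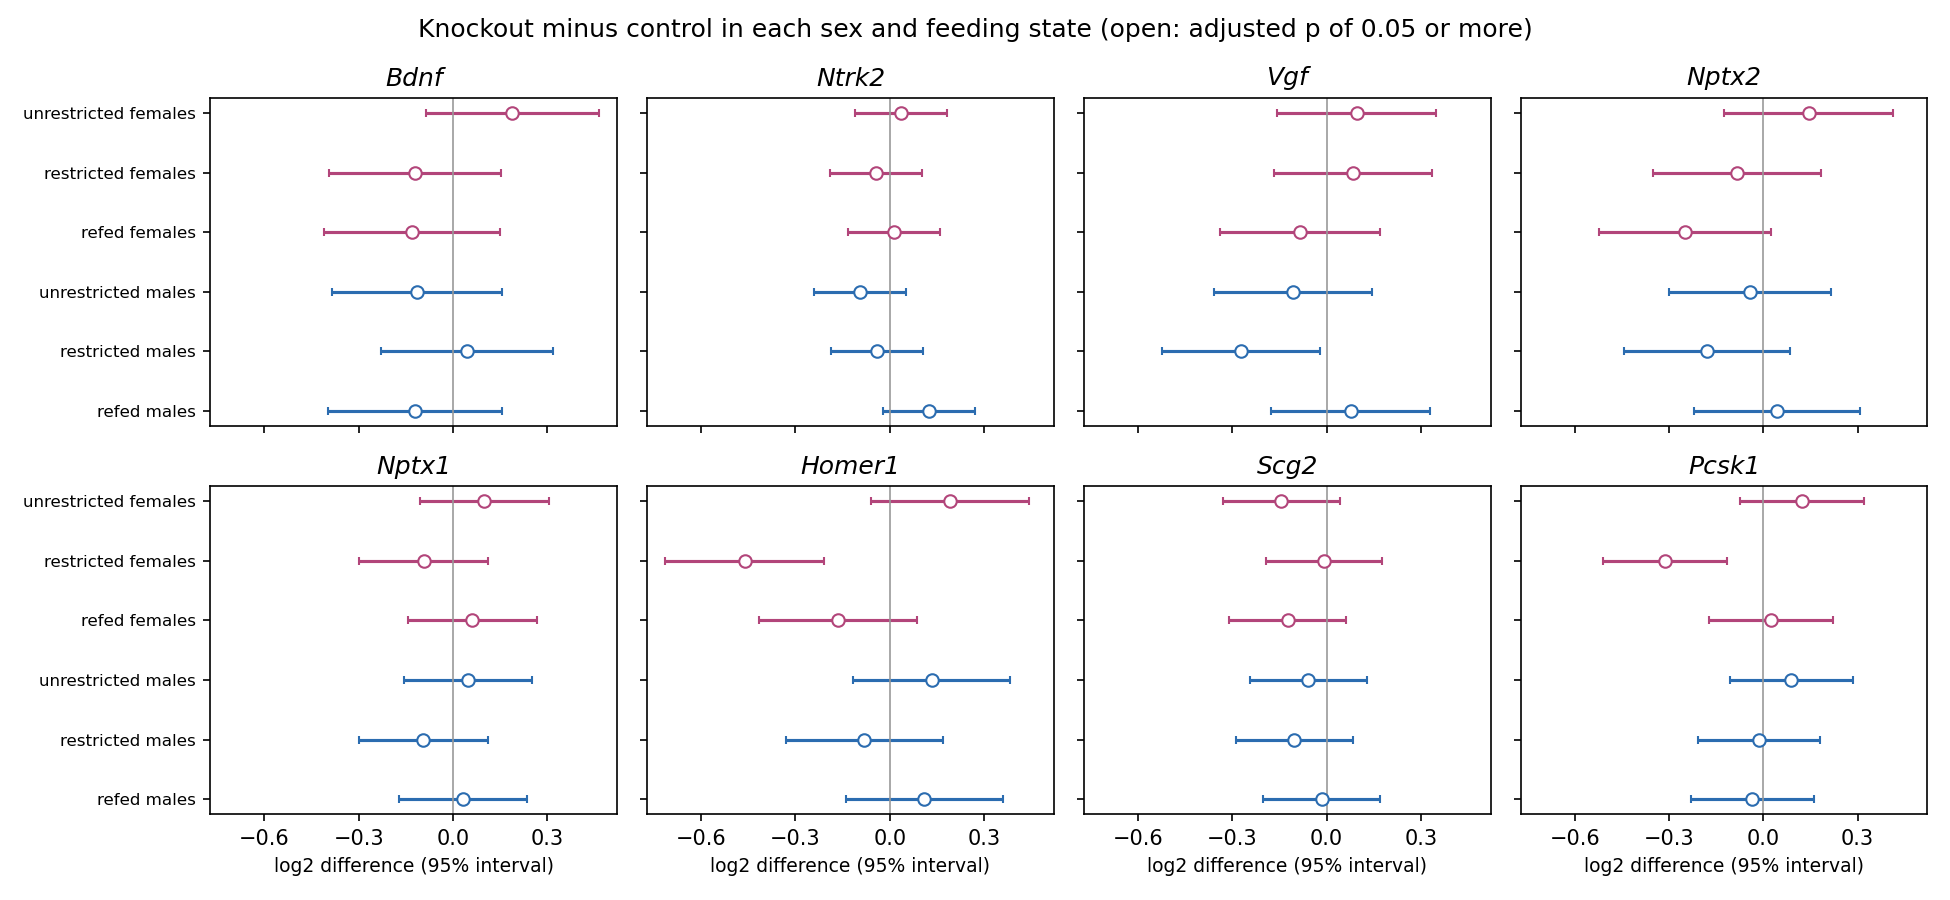
Log2 difference of knockout minus control for each gene (panels, x axis with 95% interval) in the 6 combinations of sex and feeding state (rows; females pink, males blue; open points have an adjusted p of 0.05 or more). All points are open, and the intervals that lie clear of 0 are Homer1 (-0.46) and Pcsk1 (-0.31) in restricted females and Vgf (-0.27) in restricted males.

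Homer1 and Pcsk1 had their widest genotype differences in restricted females, and the other 6 genes had theirs in other combinations (Vgf -0.27 in restricted males and Nptx2 -0.25 in refed females among them). Homer1 measured 74.29, 71.77, 79.23 and 74.85 CPM in the 4 knockouts and 88.05, 111.4, 112.0 and 103.1 CPM in the 4 controls. No knockout reached the lowest control. The fitted log2 difference was -0.46 (95% interval -0.71 to -0.21, SE 0.12, unadjusted p = 0.000601, edgeR adjusted p = 0.0815), so Homer1 was 0.73-fold of the control level without passing the threshold. DESeq2 (adjusted p = 0.0294) and limma voom (0.00777) called it, and so did edgeR without the filter on low counts (0.0464) or without female control restricted replicate 1 (0.0484).

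Pcsk1 measured 29.56, 28.79, 26.21 and 27.94 CPM in the same knockouts and 33.33, 31.46, 45.82 and 29.83 CPM in the controls. The groups did not overlap, although the highest knockout and lowest control lay close together and 1 control stood far above the rest. The share of all genes whose genotypes did not overlap was not computed, in this or any other combination. Its log2 difference was -0.31 (95% interval -0.51 to -0.12, unadjusted p = 0.00246, edgeR adjusted p = 0.127), and without each library in turn it lay between -0.38 and -0.16. In this combination edgeR called 0 of the 8 genes, with 0.386% of all genes called; 2 genes had an unadjusted p under 0.05, as had 12.5% of all genes. DESeq2 and limma voom each called 1, Homer1, and 1.19% and 3.15% of all genes.

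Library numbers were unevenly spread here: 3 of the 4 restricted female knockouts were numbered up to 28 and 3 of the 4 controls from 29. The single control up to 28 (replicate 1) measured 88.05 CPM of Homer1 against 71.77 to 79.23 CPM in the 3 knockouts of that range, and the single knockout from 29 (replicate 4) 74.85 CPM against 103.1 to 112.0 CPM in its 3 controls. With the range as a term the log2 difference of Homer1 was -0.43 (edgeR adjusted p = 0.143), and with the trend over GC content removed -0.40 (0.234). The oligodendrocyte markers Cnp (log2 0.34, edgeR adjusted p = 0.0211) and Mag (0.44, 0.0273) were called higher in these knockouts, with the 6 markers summing to 13768 to 15880.7 CPM against 10949.8 to 14755.5 CPM in controls. The 8 neuronal markers summed to 5525.6 to 5697.3 CPM against 5756.4 to 6163.8 CPM, without overlap, and 0 of them were called in edgeR (1 at an unadjusted p under 0.05). That sum was lower through the abundant Snap25 (log2 -0.20) and Syt1 (-0.17), while 5 of the 8 had a positive log2 difference and the list's median was 0.05. Median log2 differences of other lists, none with a called gene in edgeR, were -0.17 for excitatory forebrain markers (0 of 6 positive), 0.20 for striatal (6 of 6), 0.51 for hypothalamic (6 of 7) and -1.25 for olfactory bulb markers (1 of 5). Pituitary markers had 4.91 (6 of 6 positive), and summed to 10.28 to 1389 CPM in knockouts and 9.212 to 11.58 CPM in controls. Skeletal muscle markers had -2.88 (0 of 5 positive), with sums of 9.788 to 12.08 and 10.16 to 239.8 CPM. For both of these lists the knockout and control ranges overlapped at the low end, so not every library of the wider side stood apart. Lists of genes that work beside the 8, described below, had 0 called genes here. Their median log2 differences were -0.23 for rapid immediate early genes (5 of 22 positive) and -0.14 for other delayed activity-regulated genes (3 of 20). They were -0.09 for CREB regulators (1 of 12), -0.06 for synaptic partners (6 of 14) and -0.05 for other neurotrophin genes (4 of 10). For TrkB adaptors the median was -0.03 (3 of 10) and for other granule genes 0.04 (12 of 16). The part of all these lists in the Homer1 and Pcsk1 differences was not tested.

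In the other combinations edgeR called 0 of the 8 genes as well. The share of all genes called was 0.0115% in unrestricted females, 0.00576% in refed females, 0.00576% in unrestricted males, 0.00576% in restricted males and 0.225% in refed males. At an unadjusted p under 0.05 these combinations gave 1 gene, in restricted males (3.75% of all genes there), and DESeq2 and limma voom gave 0. This gene was Vgf, with 151, 172.4, 139.5 and 182 CPM in restricted male knockouts and 216.1, 221.4, 168.6 and 173.4 CPM in their controls (log2 -0.27, unadjusted p = 0.0338, edgeR adjusted p = 1). These groups overlapped.

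**Figure D4:**
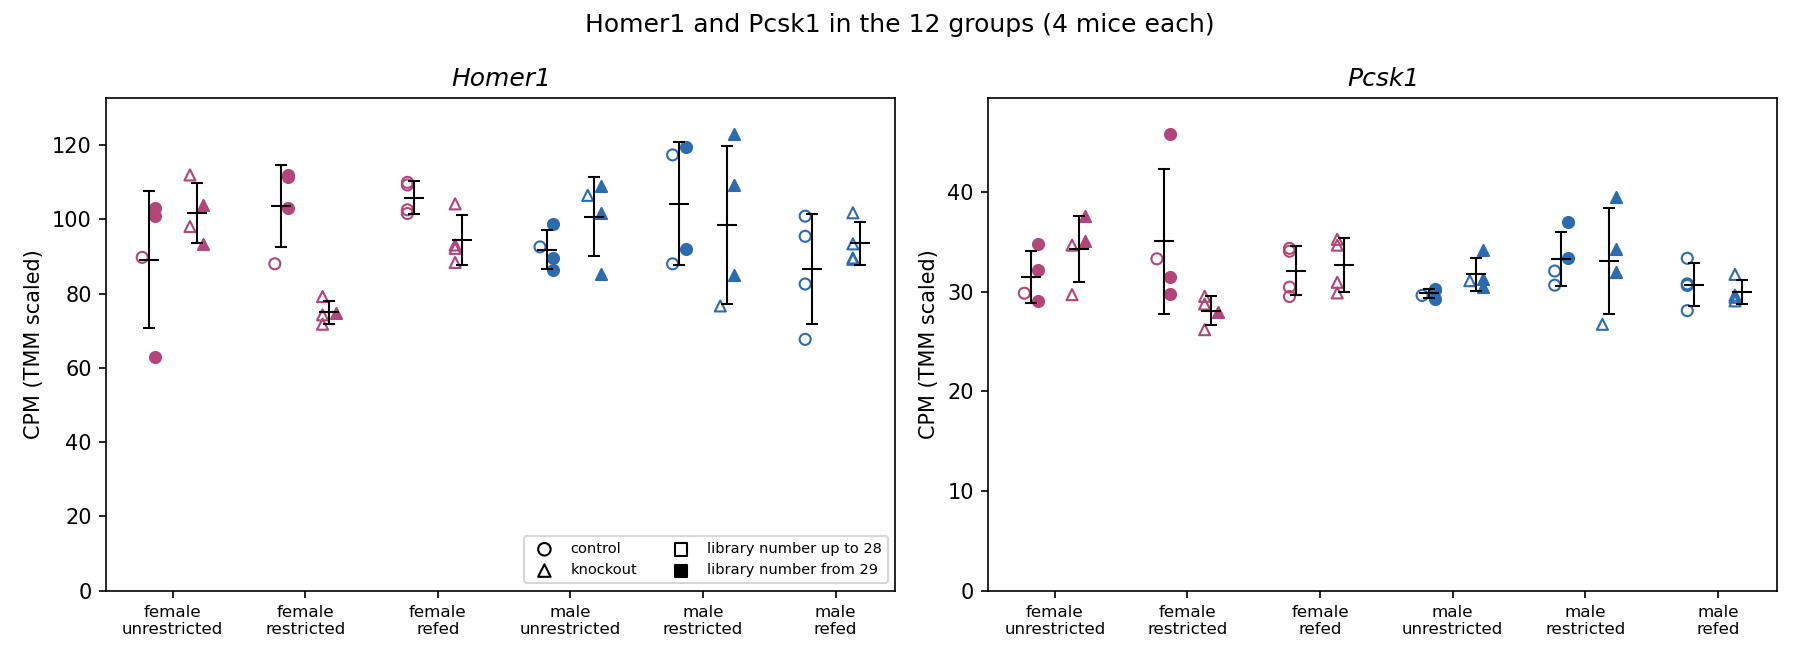
Homer1 and Pcsk1 in CPM (TMM scaled, y axis from 0) in the 12 groups of 4 mice, by sex and feeding state (x axis), controls (circles, left of each pair) and knockouts (triangles, right), with open symbols for libraries numbered up to 28 and filled symbols for those from 29; black lines are means ± SD. In restricted females the knockouts (71.77 to 79.23 CPM for Homer1) lie below all 4 controls (88.05 to 112.0 CPM).

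Outside restricted females, the genotypes overlapped for Homer1. For Pcsk1 they did not overlap in unrestricted males either, with the other sign: the 4 knockouts measured 30.46 to 34.21 CPM and the 4 controls 29.34 to 30.26 CPM (log2 0.09, edgeR adjusted p = 0.979). Here too the share of all genes without overlap was not computed. For Homer1, unrestricted female knockouts measured 101.8 ± 8.05 CPM and their controls 89.2 ± 18.4 CPM (SD, n = 4 each). In restricted males the Homer1 values were 98.5 ± 21.3 CPM in knockouts and 104.2 ± 16.5 CPM in controls. The test of whether the genotype difference depended on feeding state, with sexes averaged, called 0 of 8 genes (edgeR; 0% of all genes; 2 at an unadjusted p under 0.05, as had 4.56% of all genes; 0 by DESeq2 or limma voom). These 2 were Homer1 (unadjusted p = 0.00445) and Pcsk1 (0.0274), both with an adjusted p of 0.973. The test of a difference between the sexes called 0 of 8 genes too (0% of all genes; 0 at an unadjusted p under 0.05; 0 by the other tools).

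Genes that work beside the 8 were followed through lists, which were also chosen with earlier results of these data known. Of all genes tested, 15.2% were called for restricted against unrestricted mice and 15.2% for refed against restricted mice. Of 10 other neurotrophin ligands, receptors and sorting receptors tested (Ntf5 was too low to test), restricted against unrestricted mice gave 1 higher and 0 lower, and the list's median log2 difference was -0.03. This was Sorcs1, a sorting receptor of the sortilin family (log2 0.18, edgeR adjusted p = 0.00945). In refed against restricted mice 1 was higher, Ngfr, the p75 neurotrophin receptor (0.25, adjusted p = 0.038), and 1 lower, Sorcs1 (-0.20, adjusted p = 0.00379).

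Adaptors of TrkB signalling gave 1 higher and 1 lower of 10 in each of these comparisons, where 15.2% of all genes were called. The list's median log2 differences were -0.03 and 0.04. Ptpn11, the phosphatase SHP2, had log2 0.34 (edgeR adjusted p = 1.79e-10) for restricted against unrestricted and -0.26 (1.2e-07) for refed against restricted mice. Gab1, a docking protein, had -0.34 (5.96e-07) and 0.44 (3.13e-09).

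The next 2 lists are also to be read beside the 15.2% of all genes called in each comparison. Of 16 other prohormone processing and granule genes, restriction gave 1 higher, Pcsk7, another proprotein convertase (log2 0.23, edgeR adjusted p = 0.0015), and 0 lower. Refeeding gave 1 higher, Pcsk6 (0.18, adjusted p = 0.0368), and 1 lower, Pcsk7 (-0.23, adjusted p = 0.00226). Among 14 pentraxin and Homer partners at the synapse, restriction gave 0 higher and 2 lower, the AMPA receptor gene Gria4 (-0.15, adjusted p = 0.0241) and the metabotropic receptor gene Grm5 (-0.14, adjusted p = 0.043), and refed against restricted mice gave 2 higher, Grm5 (0.17, adjusted p = 0.0126) and Gria4 (0.13, adjusted p = 0.0487), and 0 lower.

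Rapid immediate early genes were tested for 22 genes. The shares of all genes called in the 3 comparisons that follow were 15.2%, 15.2% and 0.738%. Restricted against unrestricted mice gave 1 higher, the transcription factor gene Maff (log2 1.56, edgeR adjusted p = 2.58e-09), and 3 lower: Jun (-0.22, adjusted p = 0.0016), Egr2 (-0.61, 0.0325) and Ier5 (-0.17, 0.0427). Refed against restricted mice gave 1 higher, Jun (0.22, adjusted p = 0.00204), and 5 lower, among them Maff (-1.54, 4.5e-09), Dusp1 (-0.50, 0.000275) and Nr4a1 (-0.54, 0.00402). The other two were Fos (-0.56, adjusted p = 0.0362) and Fosl2 (-0.24, adjusted p = 0.0373). Refed against unrestricted mice gave 0 higher and 3 lower: Egr2 (-1.17, 0.00157), Nr4a1 (-0.66, 0.00622) and Fos (-0.75, 0.0359). The list's median log2 difference was -0.15, -0.19 and -0.25 in these 3 comparisons.

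Of 20 other delayed activity-regulated genes, restriction gave 1 higher, the kinase gene Plk2 (log2 0.21, edgeR adjusted p = 0.000791), and 1 lower, Rgs4 (-0.26, 0.00807), a regulator of G protein signalling. Of all genes, 15.2% were called there, 15.2% in refed against restricted and 0.738% in refed against unrestricted mice. Refed against restricted mice gave 0 higher and 7 lower, with the smallest p-values for the neuropeptide gene Cort (-0.70, 0.00385), Plk3 (-0.25, 0.0063), Sik1 (-0.36, 0.0112) and Crem (-0.28, 0.023), and refed against unrestricted mice gave 1 lower, Rgs4 (-0.29, 0.0377). Of 12 CREB regulators, edgeR called 0 for restriction (2 at an unadjusted p under 0.05), and refed against restricted mice gave 0 higher and 2 lower, Crtc2 (-0.21, 0.00234) and Camk4 (-0.19, 0.00591). Camk4 was also lower in refed than in unrestricted mice (-0.20, 0.0341). Of all these lists, knockout against control over all combinations gave 0 called genes in edgeR, with 0.00576% of all genes called. Among the listed genes 1 had an unadjusted p under 0.05 in edgeR, as had 2.48% of all genes.

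Some of the 8 genes varied together among mice of the same group. After group means were taken out, Vgf and Nptx1 had a Pearson r of 0.679 over the 48 libraries (Spearman rho 0.546, and r 0.510 without the 2 libraries farthest from the Vgf median). Scg2 and Pcsk1 had 0.612 (rho 0.581, and 0.656 without 2 libraries), and Ntrk2 and Vgf 0.504 (rho 0.404, and 0.377). Bdnf had r values between -0.265 (with Ntrk2) and 0.290 (with Homer1) with the other 7 genes. These values are descriptions: genes of a library share its dissection, depth and RNA.

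Summed cell and region markers varied along with them. Ntrk2 had an r of 0.760 with astrocyte, 0.665 with excitatory forebrain, 0.591 with dentate granule cell and -0.599 with cerebellar markers. Nptx2 had an r of 0.764 with excitatory forebrain and 0.742 with striatal markers, and Nptx1 of -0.766 with hypothalamic and -0.632 with oligodendrocyte markers. Vgf had 0.596 with astrocyte, 0.508 with excitatory forebrain and -0.444 with oligodendrocyte markers, and Nptx1 also 0.644 with astrocyte and 0.616 with excitatory forebrain markers. Scg2 had 0.597 with oligodendrocyte, 0.466 with olfactory bulb, 0.442 with hypothalamic, 0.432 with endothelial and -0.427 with excitatory forebrain markers. Pcsk1 had 0.451 with oligodendrocyte, 0.371 with red blood cell, 0.344 with endothelial and -0.319 with excitatory forebrain markers. The values farthest from 0 over all 16 marker lists were 0.230 for Bdnf (dentate granule cells) and -0.376 for Homer1 (cerebellum). The part of tissue composition in the variation of the 8 genes was not tested.

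**Figure D5:**
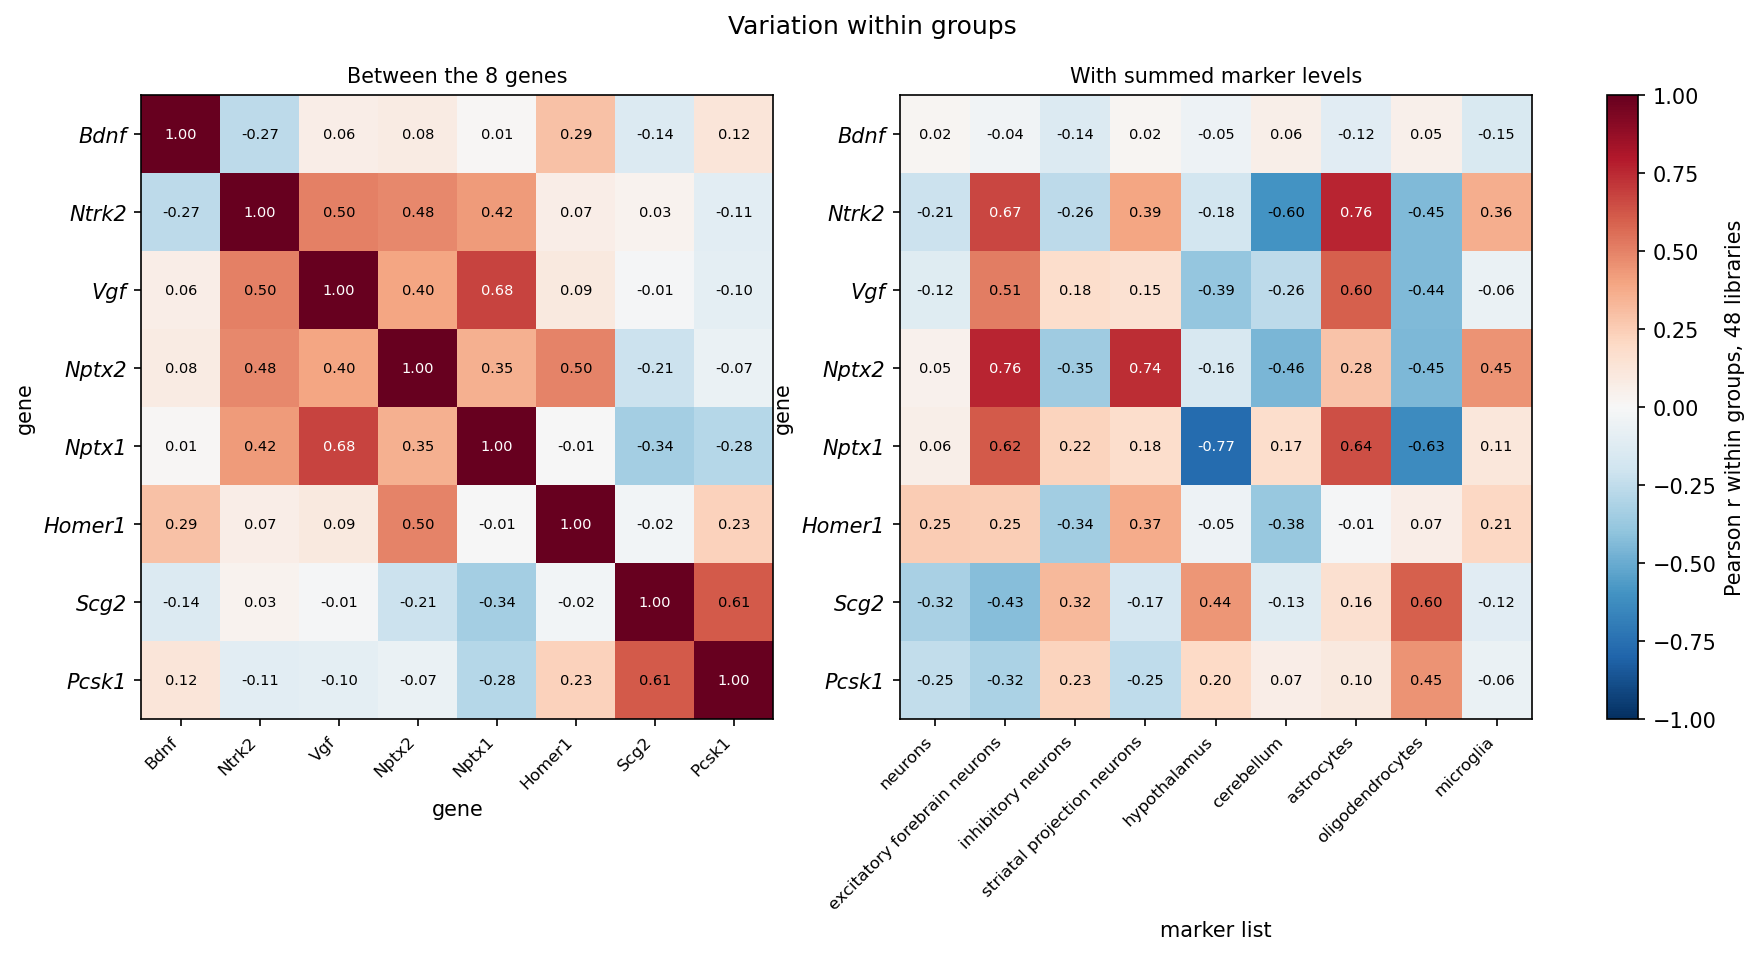
Pearson r over 48 libraries after group means were taken out (colour scale from -1 to 1, values printed in the cells), between the 8 genes (left) and between each gene and the summed level of 9 marker lists (right). Vgf and Nptx1 (0.68) and Scg2 and Pcsk1 (0.61) have the highest values on the left, and Nptx1 with hypothalamic markers (-0.77) the lowest on the right.

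Genes whose log2 levels were among the most like each of the 8, by the same within-group r among 12366 genes, were as follows. Bdnf was most like Prcp (0.621), Ier5 (0.605) and Klf10 (0.594). Homer1 was most like ENSMUSG00000121792 (0.737), Spred1 (0.701) and Egr3 (0.697). Higher values were found for Ntrk2 with Rasgrf1 (0.881), Mrtfb (0.878) and Nhsl2 (0.868), for Vgf with Rab11fip4 (0.870) and Trim41 (0.858), and for Nptx1 with Gfod1 (0.872), Tmem132a (0.867) and Nfix (0.862). Nptx2 was most like Cx3cl1 (0.858), Ngef (0.840) and Mmp17 (0.83), Scg2 most like Efcab2 (0.713), Fbln5 (0.677) and Unc13c (0.670), and Pcsk1 most like Hnrnph1 (0.713), Snx14 (0.713) and Fubp1 (0.702).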

How the data were processed

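Polyadenylated RNA from 1 hemisphere of each of 48 mice was sequenced in libraries made with an Illumina-compatible kit, per the labels' protocols. The submitters' processing notes name fastp, STAR, Salmon and the build mm39, without versions; strand setting and annotation are not given in the sources used here. The authors deposited estimated counts (expected counts) per gene, unscaled between libraries. These were rounded, filtered with filterByExpr (minimum count 10, minimum total count 15), scaled by TMM and fitted with 1 coefficient per group over all 48 libraries by edgeR 4.0.16 (glmQLFit, glmQLFTest, R 4.3.3), for 22 comparisons, with p-values adjusted over genes by the Benjamini-Hochberg method. CPM used TMM-scaled totals, and log2 CPM a prior count of 2. The fit was tested on simulated data. Named genes were the 8 genes, Grin1, Aldh1a1 and, of each list, up to 4 called genes with the smallest p in the averaged comparisons. Fos and Fosl2 in refed against restricted mice, and Cnp, Mag, Snap25 and Syt1 in restricted females, and the single markers called with feeding state, were named after their values were seen. The 8 genes and all lists were chosen with earlier results of these data known. Alternatives were DESeq2 1.42.0, limma 3.58.1 voom with sample weights, RLE factors, no filter, age or library number range as a term, a threshold of 0.1, only the groups compared, length or GC trends over 20 bins removed, 3 libraries left out and each library left out. Reads carry no molecular identifiers, and the replicate numbers only name mice. Promoter sequences are from RefSeq (GRCm38.p6) and gene positions from GENCODE M39 on GRCm39, the build the mm39 name stands for. One gene among those most like Vgf is not reported here.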

Additional observations from a re-analysis of the deposited data

Results flagged for a closer look

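Of 96 combinations of the 8 genes with the 12 groups, 4 held a library whose distance to its nearest neighbour took up a larger share of the group's range than the 95% critical value of Dixon's test for 4 values, which chance alone passes in about 1 of 20 groups. Vgf measured 144 CPM in female control refed replicate 1 and 125.7 to 127.4 CPM in the other 3 mice of that group. In male control refed replicate 2 Vgf measured 85.3 CPM, against 155.9 to 169.6 CPM in the other 3. Counts of the 8 genes together were also low in this library, 12009 of a total of 10561527, against 14745 of 10281256 in replicate 4. The same group held the lowest Nptx1 (215.1 CPM), Nptx2 (17.27 CPM) and Grin1 (250 CPM) of all 48 libraries. Whether a shift of the whole library lay behind the low Vgf was not tested. Nptx2 measured 21.33 CPM in female knockout refed replicate 3, against 18.75 to 18.8 CPM in the other 3. In male knockout restricted replicate 4 it measured 30.23 CPM, against 19.92 to 20.4 CPM in the other 3.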

How the results depend on the processing

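No value of the 8 genes changed sign with a call. Of 1944 values under other settings 1896 kept their side of the threshold, 7 lost a call and 41 gained one, and of 4224 with a library left out 4199 kept it, 8 lost and 17 gained. Restricted against unrestricted mice, 2 genes were called, 0 within libraries numbered up to 28 (2.83% of all genes), 0 within those from 29 (7.86%), and 2 to 4 with a library left out (4 without male knockout restricted replicate 4, with Nptx2 at adjusted p = 0.025 and Scg2 at 0.0364 added). Refed against restricted mice, 2 became 1 with the library number range as a term (11.8% of all genes), and 3 with the length trend removed, with Ntrk2 added. In restricted against unrestricted females, 0 became 1 (Vgf) at an adjusted p under 0.1, with age, voom and only the groups compared (6.21% to 9.6% of all genes; 0 to 1 with a library left out; 1 without female knockout restricted replicate 4). In males 1 became 2 at 0.1 (12.1% of all genes) and with the GC trend removed (9.54%), 3 with voom (10.3%) and 0 within either range (0.352% up to 28 and 7.19% from 29); with a library left out it was 0 to 2, and 0 without male control restricted replicates 1 or 2, male control unrestricted 3 or 4, male knockout unrestricted 2 or 3, or male knockout restricted 2 or 4, and 2 without male control restricted 3 or male knockout unrestricted 1. In refed against restricted females, 1 became 2 at 0.1, with age, the length trend or the GC trend removed, voom and DESeq2 (5.34% to 11.2% of all genes), and 3 with only the groups compared (7.03%; 1 to 2 with a library left out; 2 without female control restricted replicate 4). In males 0 became 1 at 0.1, with RLE factors, no filter, age, library number range, length, GC, DESeq2 and the 3 libraries left out (3.18% of all genes with no filter, 12.4% at 0.1 and 5.81% to 9.67% for the others), and without male control refed 1, 3 or 4, male control restricted 3 or 4, or male knockout restricted 3 or 4 (0 to 1). Refed against unrestricted males gave 1 with voom (7.47%). In restricted females, knockout against control gave 1 (Homer1) at 0.1, with no filter, voom and DESeq2 (1.34%, 0.0951%, 3.15% and 1.19% of all genes; 0 to 1 with a library left out). Male against female gave 1 with the library number range (2.75%), 1 with the length trend removed (0.645%) and 3 with voom (11%; 0 to 2 with a library left out). The causes were not tested. Of 48 correlations recomputed, 37 moved by under 0.1. The 3 libraries were left out because of ribosomal RNA, muscle genes and the single flanked allele. No paired analysis was possible because replicate numbers follow the sample records and only name mice. Depth limits Bdnf most, with the fewest counts of the 8 genes.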
